A study of Homo sapiens with 24 samples.

Results

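Intron retention leaves an intron in a polyadenylated mRNA, and such transcripts are commonly held in the nucleus until the intron is removed or the RNA is degraded. The introns described here carried intron signal in control nuclei. Relative to spliced reads, that signal was much lower after loss of ERH, a small nuclear protein linked to splicing and to nuclear RNA turnover. RKO cells, an established colon carcinoma line, carried a doxycycline-inducible Cas9 (RKO-dox-Cas9) and received a guide against ERH (sgERH) or a control guide against the AAVS1 safe-harbour locus (sgAAVS1). All cells had doxycycline at 100 ng/mL for 5 days, and were then given cycloheximide (CHX, an inhibitor of translation, at 25 µg/mL) or its solvent DMSO for 4 h before nuclear and cytoplasmic RNA was taken.

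The 24 libraries of polyadenylated RNA form 8 groups of 3: nucleus sgERH DMSO, nucleus sgAAVS1 DMSO, nucleus sgERH CHX, nucleus sgAAVS1 CHX, and the same 4 combinations in the cytoplasm. By the study's methods the Cas9 line derives from a single cell, so all groups rest on 1 line. The labels number the libraries of a group as biological replicates and say no more of their origin, so p-values measure the spread between these libraries. In bulk RNA, fewer cells with a transcript and less of it per cell cannot be told apart.

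The IR ratio of an intron is its coverage depth divided by the sum of that depth and the reads spliced at its more used end. Members were chosen by their IR ratios in the nuclear DMSO libraries. An intron was a member if it was named clean (free of other annotated exons), had a mean of depth plus spliced reads of at least 20 over the 6 nuclear DMSO libraries, and had a mean IR ratio of 0.15 to 0.5 in nucleus sgAAVS1 DMSO and at most 0.5 times that in nucleus sgERH DMSO. Of 233113 introns in the tables, 227775 were clean, 129677 passed the depth minimum, 28400 lay in the 0.15 to 0.5 band, and 2604 were members. They made up 9.17% of the band and lay in 1750 genes. The mirror rule, with the guides exchanged, took 1210 introns. Their values in those 6 libraries are a description, and tests rest on the CHX nuclei and on the cytoplasm.

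Members were not independent of each other. They covered 2073 non-overlapping regions, 464 shared a start and 465 an end with another member, and 543 genes held 2 or more. CARHSP1, which encodes a cold-shock-domain RNA-binding protein, held 10, but 8 of these share the intron end at position 8859336 of chromosome 16 and so read largely the same RNA.

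The ends of selected members are shown because splice sites are what the spliceosome recognises, and because these introns carry the comparisons that follow. For each intron the 5′ end gives 3 exon and 20 intron bases and the 3′ end gives 20 intron and 3 exon bases, on the transcribed strand of GRCh38, with the first and last 2 bases of the intron in capitals. The first set is of members with deep coverage, in genes for ribosomal proteins and for RNA processing, growth and repair.
RPL3 intron 5 (chr22:39314847-39315368, minus strand), 5′ end: aagGTgagctttgcggtggcttg
RPL3 intron 5, 3′ end: gtaatgtgtatccattccAGggg
RPS18 intron 1 (chr6:33272123-33272627, plus strand), 5′ end: atgGTaagactggaatccgtgcc
RPS18 intron 1, 3′ end: ccccgtactttttcaactAGtct
BCLAF1 intron 9 (chr6:136268340-136269436, minus strand), 5′ end: cagGTaattgttcaaactgacta
BCLAF1 intron 9, 3′ end: ttgttttctttattttgcAGtaa
PRPF8 intron 28 (chr17:1660828-1660992, minus strand), 5′ end: ctgGTgaggattctcctctctta
PRPF8 intron 28, 3′ end: ctgcttctcttgctccccAGgga
HNRNPA2B1 intron of 98 bases (chr7:26197733-26197830, minus strand), 5′ end: aagGTactctgccagcaggtcac
HNRNPA2B1 intron, 3′ end: aatggtattttcctttgcAGaga
ATR intron 46 (chr3:142449603-142453127, minus strand), 5′ end: aagGTtagtagaaggtatagctt
ATR intron 46, 3′ end: tttatgtttcttctttttAGgcc
PIK3C2A intron 31 (chr11:17091460-17091546, minus strand), 5′ end: cttGTgagtgattacaaagaatg
PIK3C2A intron 31, 3′ end: gggactgcttttctttttAGgtt

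The second set is of members with some of the largest decreases in CHX nuclei that were called lower after centring as well, and of the ZNF300 intron, which was retained in the cytoplasm too.
UBQLN4 intron 3 (chr1:156050554-156051109, minus strand), 5′ end: tctGTaagccctcagagaggaga
UBQLN4 intron 3, 3′ end: accctgcccccttcccacAGctg
RALGAPB intron (chr20:38534394-38535073, plus strand), 5′ end: cagGTataatgtccctaaagctt
RALGAPB intron, 3′ end: gcattggggttatatcctAGctc
TNFAIP2 intron 2 (chr14:103126693-103127004, plus strand), 5′ end: cagGTgctctaggaccctgggtt
TNFAIP2 intron 2, 3′ end: acgcggctttcccggcgcAGtgg
STK26 intron (chrX:132055522-132063432, plus strand), 5′ end: ctgGTtggtaaaacccagtggtc
STK26 intron, 3′ end: attgtttcatggctttacAGggg
ZNF300 intron of 146 bases (chr5:150903183-150903328, minus strand), 5′ end: tctGTaaggctcaaacaacctta
ZNF300 intron, 3′ end: caccagttttgctttttcAGtca

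The third set has AT in place of GT at the 5′ end, a form found mostly among introns removed by the minor spliceosome. It held 5 members, of which 3 are overlapping introns of PIGB that share their 5′ end.
VPS11 intron 1 (chr11:119068011-119069195, plus strand), 5′ end: gagATatccttcgtttggagctg
VPS11 intron 1, 3′ end: gctccttgactaccctgcACata
PIGB intron (chr15:55320411-55321269, plus strand), 5′ end: caaATatcctttgtggtttcttt
PIGB intron, 3′ end: catttactccttaatgttACtaa
CRYZL1 intron (chr21:33595615-33595730, minus strand), 5′ end: tttATatcctttttatcgactga
CRYZL1 intron, 3′ end: tttccttaagtattccaaACagt

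Among all members, 2575 (98.9%) began with GT, 23 with GC and 5 with AT. The AT share was 0.192% in members, 0.252% in the rest of the band and 0.116% in all clean introns past the depth minimum. Members had a median length of 1747 bases and 43.3% GC, against 1430 bases and 48.2% in the other introns of the band and 1827 bases and 43.3% in all introns past the depth minimum. The 5′ splice site score is the log2 odds of 9 bases against equal base use, under weights from these introns. Its median was 7.91 in members, 8.01 in the rest of the band and 8.19 in all introns past the depth minimum. The corresponding 3′ score over 23 bases was 9.45 in members, 8.84 in the rest of the band and 9.55 in all introns past the depth minimum. These features are given as descriptions without a test.

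Members came from transcripts with fewer introns. The canonical transcripts that held them had a median of 10 introns, against 12 for the rest of the band, 20 for the mirror set and 16 for all introns past the depth minimum. Among members that matched a canonical intron, 12.8% were first introns and 16.8% last introns. The shares were 8.58% and 15.3% in the rest of the band, and 7.19% and 8.74% in all introns past the depth minimum. An annotated snoRNA or scaRNA gene lay on the same strand within 17 members (0.653%), against 0.227% of all introns past the depth minimum. Members were also read at lower depth, with a median of 41 spliced reads in nucleus sgAAVS1 DMSO, against 103 in the rest of the band. A caution from the retention caller was absent in all 3 sgAAVS1 DMSO libraries for 780 members (30.0%), against 43.4% of the rest of the band. Low depth raises the spread of an IR ratio, and its part in the choice of members was not tested.

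The rule gave members a median IR ratio of 0.0836, 0.0981 and 0.0966 in the 3 libraries of nucleus sgERH DMSO, against 0.232, 0.218 and 0.237 in nucleus sgAAVS1 DMSO. The sgERH value of a member was a median of 0.426 of its sgAAVS1 value, and 1590 members kept more than 0.4 of it. Most members thus sat close to the limit of 0.5 times that the rule set. Just inside it lay SENP3 intron 2 (chr17:7563792-7564624), with a mean IR ratio of 0.110 in sgERH and 0.220 in sgAAVS1. Just outside it lay an MSMO1 intron (chr4:165338779-165340220), with 0.0823 in sgERH and 0.165 in sgAAVS1.

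In CHX nuclei, which the rule did not use, members had median IR ratios of 0.0777, 0.0542 and 0.0829 in sgERH, against 0.184, 0.174 and 0.180 in sgAAVS1. The second sgERH library stood lowest, and the groups did not overlap. The rest of the band gave 0.154, 0.124 and 0.157 in sgERH, against 0.248, 0.240 and 0.246 in sgAAVS1. In the cytoplasm, members had almost no intron signal. Their median over group means was 0.00214 in sgERH DMSO, 0.00167 in sgAAVS1 DMSO, 0.00154 in sgERH CHX and 0.00148 in sgAAVS1 CHX, and at least 98.2% of members lay under 0.05 in each of these groups.

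**Figure D1:**
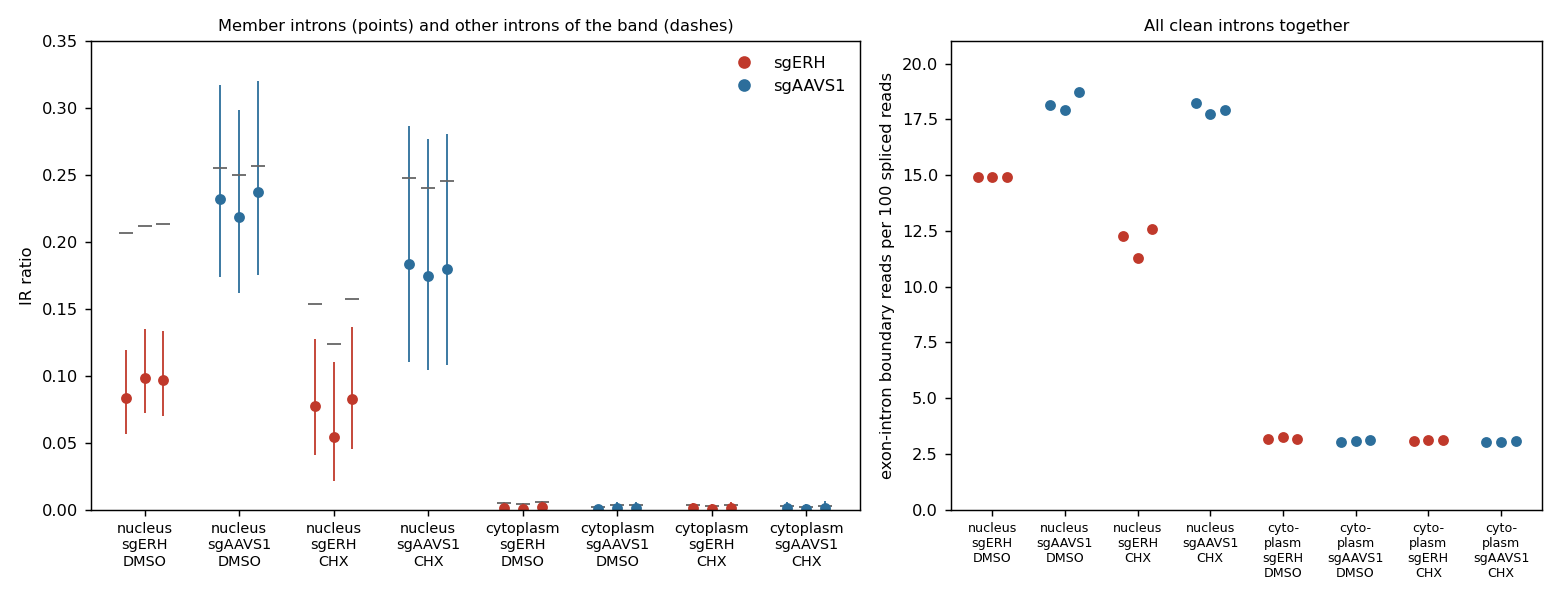
Left, median IR ratio of the 2604 members in each of the 24 libraries (points, with the lower to upper quartile as lines) and of the other introns of the band (dashes); right, reads across exon-intron boundaries per 100 spliced reads over all clean introns in each library. Members lie at 0.0542 to 0.0829 in the sgERH CHX nuclei, below 0.174 to 0.184 in the sgAAVS1 CHX nuclei, and near 0 in the cytoplasm.

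Intron signal was lower over the whole nuclear transcriptome of sgERH cells, and the members have to be read against that. Summed over all clean introns, reads that cross an exon-intron boundary came to 12.04 ± 0.675 per 100 spliced reads in nucleus sgERH CHX and 17.97 ± 0.267 in nucleus sgAAVS1 CHX, a ratio of 0.670 (mean ± SD, n = 3 each). With DMSO they came to 14.9 ± 0.0187 in nucleus sgERH and 18.3 ± 0.420 in nucleus sgAAVS1, a ratio of 0.816. In the cytoplasm the ratios were 1.03 with DMSO and 1.02 with CHX. The 3 sgERH libraries lay apart from the 3 sgAAVS1 libraries in the nucleus, where the exact two-sided permutation test gave p = 0.1 for each treatment (0.133 after Benjamini-Hochberg adjustment over 4 comparisons), the smallest value that 3 against 3 libraries allow. Summed intron depth per 100 spliced reads gave nuclear ratios of 0.602 with CHX and 0.778 with DMSO, and cytoplasmic ratios above 1. It came to 0.330 ± 0.0178 in cytoplasm sgERH DMSO and 0.229 ± 0.0250 in cytoplasm sgAAVS1 DMSO, a ratio of 1.44, and to 0.325 ± 0.0284 in cytoplasm sgERH CHX and 0.271 ± 0.0238 in cytoplasm sgAAVS1 CHX, a ratio of 1.2 (n = 3 each, exact two-sided permutation p = 0.1 for each). Over the members alone, boundary reads came to 13.5, 12.5 and 13.96 per 100 spliced reads in nucleus sgERH CHX, against 32.7, 30.5 and 31.5 in nucleus sgAAVS1 CHX.

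Some other library features differed between the guides. Mitochondrial mRNAs took 0.526 to 0.750% of counts in nucleus sgERH CHX, against 0.338 to 0.430% in nucleus sgAAVS1 CHX. Their mean share was also higher in sgERH in DMSO nuclei, at 0.679% against 0.451% in sgAAVS1. In the cytoplasm it was 4.43% in sgERH against 2.87% in sgAAVS1 with CHX, and 5.64% against 3.55% with DMSO. The nuclear RNA MALAT1 averaged 4324 CPM, which scales counts to a common library size, in nucleus sgERH CHX and 6058 in nucleus sgAAVS1 CHX, but 5353 in nucleus sgERH DMSO and 4619 in nucleus sgAAVS1 DMSO. NEAT1, another nuclear RNA, was higher in sgERH with both treatments, at 6072 CPM in nucleus sgERH CHX and 4859 in nucleus sgAAVS1 CHX, so the nuclear RNAs did not move one way. In the 4 cytoplasmic groups MALAT1 was at 204 to 338 CPM. Total counts were 30.3 to 40.3 M in nucleus sgERH CHX and 27.8 to 31.1 M in nucleus sgAAVS1 CHX, and ran from 27.8 to 79.5 M over all libraries. The part of these in the results was not tested. Of the 11 colon epithelial markers, KRT8, KRT18, EPCAM and CDX2 were detected and KRT20 and CDX1 were at 0. The others, CDH1, VIL1, LGALS4, CEACAM5 and MUC2, stayed under 1 CPM in every group. EPCAM was low, at 3.41 CPM in nucleus sgERH CHX and 1.02 in nucleus sgAAVS1 CHX. The fibroblast collagen COL1A1 was at a like level, with 3.36 CPM in nucleus sgERH CHX and 2.79 in nucleus sgAAVS1 CHX, while COL1A2 and COL3A1 stayed under 1 CPM. The leukocyte markers PTPRC and CD3E were at or near 0. CD68 was detected in every group, ITGAM averaged 14.1 CPM in nucleus sgERH CHX and 16.5 in nucleus sgAAVS1 CHX, and LYZ averaged 0.00826 CPM in nucleus sgERH CHX and 5.30 in nucleus sgAAVS1 CHX. With DMSO, ITGAM averaged 0.913 CPM in nucleus sgERH and 0.260 in nucleus sgAAVS1, and LYZ 0 and 0.0425. Both stayed under 1 CPM in the cytoplasm.

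ERH transcript was at 59.4 to 86.9 CPM in cytoplasm sgERH DMSO, against 137 to 158 in cytoplasm sgAAVS1 DMSO, without overlap. With CHX it was at 61.6 to 81.0 in cytoplasm sgERH and 107 to 122 in cytoplasm sgAAVS1. In nuclei it was at 11.3 to 14.9 in sgERH DMSO and 15.6 to 21.8 in sgAAVS1 DMSO, and at 11.8 to 16.8 in sgERH CHX and 14.1 to 15.6 in sgAAVS1 CHX. The CHX nuclei, on which the main test rests, thus overlapped in ERH transcript. ERH itself held no member, and neither did JAK2, HSPA4L or GADD45A.

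Members were tested for lower retention in CHX nuclei with a model of intron depth against spliced reads fitted over 112568 introns. A call needed 3 things: an adjusted p no higher than 0.05, a log2 fold change of 1 or more in size, and a mean IR ratio no lower than 0.05 in whichever guide retained more. Of 2588 members that passed the low-value filter, 1344 (51.9%) were lower in sgERH, against 21.5% of all introns tested, and 1 was higher, against 0.831%. The 16 other members were too shallow to test. The member median of the log2 fold change was -1.52 (quartiles -2.03 and -0.96), against -0.94 over all introns tested. In the rest of the band 34.9% were lower, with a median of -0.92, while in the mirror set 3.15% were lower and 26.1% higher, with a median of 0.51.

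Most of these calls were not made once the transcriptome-wide shift was taken out. When each library was centred on its own median ratio, 250 members (9.66%) were lower, against 1.57% of all introns tested, and 3 were higher, against 2.41%. All 250 were also among the 1344. The member median was then -0.65, against -0.07 over all introns tested, and 2.17% of the rest of the band were lower. Over all introns, 24230 were lower and 935 higher before centring, and 1763 lower and 2715 higher after it. Leaving out the second sgERH library, which stood lowest, gave 1079 members lower without centring.

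**Figure D2:**
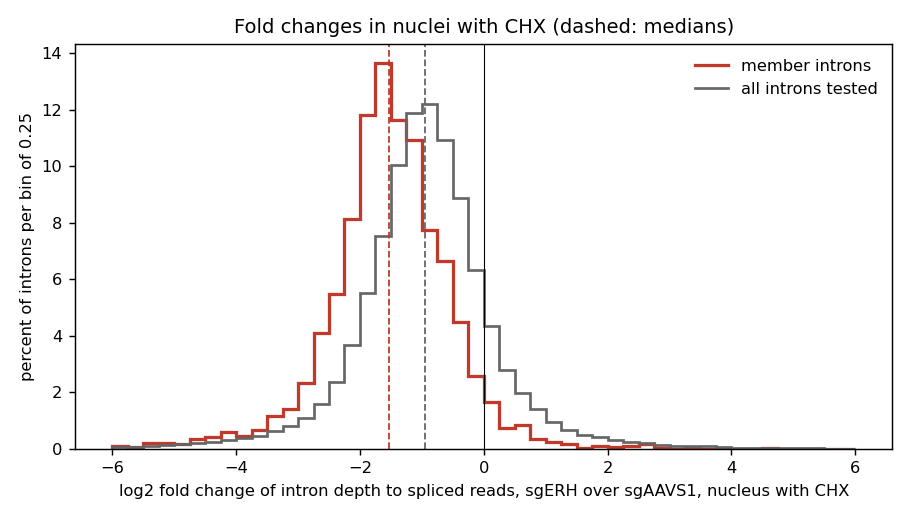
Distribution of the log2 fold change of intron depth relative to spliced reads, sgERH over sgAAVS1, in CHX nuclei, for the members and for all 112568 introns tested, in percent of introns per bin of 0.25. The member median (dashed) is at -1.52 and that of all introns at -0.94; 4 members and 100 of all introns lie beyond the axis.

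The same repeat can be read without a model. In 1668 members (64.1%) the IR ratios of all 3 sgERH CHX nuclei lay below those of all 3 sgAAVS1 CHX nuclei, against 45.4% of all introns tested and 55.7% of the rest of the band. The mean in sgERH CHX nuclei was at most 0.5 times that in sgAAVS1 CHX nuclei for 1702 members (65.4%), against 38.6% of all introns tested and 28.8% of the rest of the band.

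The share called followed depth. Of members with a mean of depth plus spliced reads under 100 in the nuclear libraries, 35.5% were lower (16.6% of all introns at that depth). From 100 to 1000 the share was 74.3% (24.5% of all introns), and of the 88 members above 1000 it was 94.3% (19.5% of all introns). The median fold change did not follow depth in this way, at -1.52, -1.51 and -1.72 in the 3 classes. Taking only the deepest member of each overlapping group left 1057 of 2060 lower (51.3%). Taking only members with no caution left 483 of 780 (61.9%), against 25.4% of all introns with none.

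An IR ratio is lowered by less intron depth or by more spliced reads, and members showed both. With each part fitted alone against the same scaling of spliced reads, intron depth was lower in 1119 members (43.2%, against 29% of all introns tested) and higher in 4 (0.895% of all introns were higher). Its median log2 fold change was -1.15 in members and -0.91 over all introns. Spliced reads were higher in 334 members (12.9%, against 3.88%) and lower in 36 (1.39%, against 3.4%), with a median of 0.37 in members and 0.01 over all introns. In 1679 members (64.9%) the fitted depth was below and the fitted spliced reads above 0, against 41.5% of all introns tested. The member medians thus differed from those of all introns by -0.24 in depth and by 0.36 in spliced reads. Of the 1344 members called lower, 914 were also called lower in depth, 246 were called higher in spliced reads, 81 were called in both, and 265 were called in neither.

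**Figure D3:**
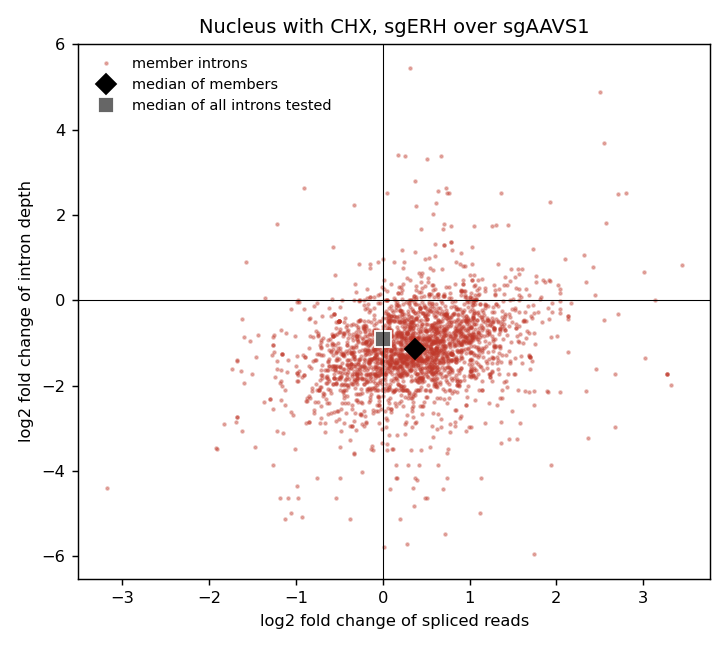
Log2 fold change of spliced reads (horizontal) and of intron depth (vertical), sgERH over sgAAVS1 in CHX nuclei, for the 2588 members tested, with the medians of the members and of all introns tested. The member median lies at 0.37 and -1.15, to the right of and below that of all introns, at 0.01 and -0.91.

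Ribosomal protein genes were frequent among the deepest members. This gene group was chosen after its values were seen, so its counts are a description. It held 54 members in 24 genes, 15.7% of the 345 introns of such genes that were tested, where members are 2.3% of all introns tested. In CHX nuclei 51 of the 54 were lower and the other 3, 1 intron of RPSA and 2 of RPS25, were not called. Over the whole group 125 of 345 introns (36.2%) were lower, against 21.5% of all introns tested. Spliced reads of the members were above 0 on the log2 scale in all 54, with a median of 0.93, and the median of intron depth was -0.85. After centring, 16 remained lower. Processed pseudogenes share exon sequence with these genes, so their spliced-read levels carry that uncertainty.

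RPL3 encodes a protein of the large ribosomal subunit and held 6 members. Its intron 5, shown first above, had IR ratios of 0.0307, 0.0291 and 0.0411 in nucleus sgERH CHX, against 0.204, 0.1504 and 0.192 in nucleus sgAAVS1 CHX. The groups were far apart, and the log2 fold change was -2.69 ± 0.18 (edgeR, adjusted p = 9.02e-07, SE) and -1.78 after centring, still called. Its intron depth changed by -1.56 and its spliced reads by 1.13 on the log2 scale. RPL3 intron 7 (chr22:39313730-39314106) changed by -1.81 ± 0.12 and intron 8 (chr22:39313311-39313633) by -1.45 ± 0.16, and neither was called after centring. In the cytoplasmic libraries all 3 stayed at or under an IR ratio of 0.000761.

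RPS18 encodes a protein of the small subunit. Its intron 1 had IR ratios of 0.0415, 0.0409 and 0.0467 in nucleus sgERH CHX, against 0.113, 0.0981 and 0.111 in nucleus sgAAVS1 CHX, and changed by -1.42 ± 0.15 (edgeR, adjusted p = 2.40e-05). The change lay mostly in spliced reads, at 1.04, and less in depth, at -0.38. Total RPS18 counts in CHX nuclei changed by 0.93 on the log2 scale and those of RPL3 by 0.87.

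The gene lists on RNA processing and growth have to be read against all introns tested, of which 2.3% were members, 21.5% were lower in CHX nuclei and 0.831% higher. Among these lists, members took a share under 2.3% in all but that of p53 targets. Calls in these lists are before centring unless stated. Of the 87 named results, 43 lost their call after centring. The 87 include cytoplasmic results and introns not called before centring, which had no call to lose. hnRNPs and related RNA-binding proteins held 7 members (1.35% of the introns tested in the list), all lower in CHX nuclei, and over this list 159 of 518 introns (30.7%) were lower and 6 (1.16%) higher. HNRNPC, which binds uridine-rich nascent RNA, had an intron (chr14:21234230-21236372) with IR ratios of 0.0951, 0.123 and 0.134 in nucleus sgERH CHX, against 0.307, 0.306 and 0.277 in nucleus sgAAVS1 CHX. It changed by -1.67 ± 0.16, almost wholly in depth (-1.64), since its spliced reads changed by 0.02. After centring its change was -0.77, and it was not called. The 98-base intron of HNRNPA2B1, another abundant binder of nascent RNA, had 0.0978, 0.0799 and 0.121 in nucleus sgERH CHX, against 0.212, 0.190 and 0.178 in nucleus sgAAVS1 CHX. The log2 fold change of the ratio was -1.14 ± 0.16, with depth at -1.87 and spliced reads at -0.73, and total HNRNPA2B1 counts changed by -0.96. HNRNPUL2 intron 1 changed by -2.48 and PTBP3 intron 9 by -1.82.

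Core spliceosome genes held 8 members (0.947% of the list), of which 7 were lower. Over the list 168 of 845 introns (19.9%) were lower and 5 (0.592%) higher, close to the shares of all introns. PRPF8 is the large protein at the catalytic centre of the spliceosome. Its intron 28 had IR ratios of 0.154, 0.131 and 0.172 in nucleus sgERH CHX, against 0.313, 0.323 and 0.233 in nucleus sgAAVS1 CHX, and changed by -1.19 ± 0.22 (edgeR, adjusted p = 0.00105). Its depth changed by -0.28 and did not pass the test, and its spliced reads changed by 0.91. The other member genes were the U1 protein SNRPC (-1.45), the Sm protein SNRPF (-1.85), PLRG1 (-1.68), DDX46 (-1.31 and -1.16), BUD13 (-1.05) and SART1 (-1.01, not called). SR and SR-like factors held a single member, in PNISR (-1.97, lower), with 66 of 385 introns of the list (17.1%) lower.

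The exon junction complex marks spliced mRNA and TREX couples it to export. The list of their subunits and of ERH partners held 9 members (1.85% of the list), all lower, and over it 113 of 487 introns (23.2%) were lower and 3 (0.616%) higher, again close to all introns. MAGOH and MAGOHB, paralogues of which either can be part of the core of the exon junction complex, changed by -1.76 in MAGOH intron 2 and by -2.32 and -2.14 in 2 introns of MAGOHB. The TREX subunit THOC7 changed by -2.41 in intron 6 and THRAP3, a protein related to BCLAF1, by -1.80 in intron 8. BCLAF1, which binds RNA processing factors, had in intron 9 IR ratios of 0.0359, 0.0329 and 0.0303 in nucleus sgERH CHX, against 0.181, 0.157 and 0.163 in nucleus sgAAVS1 CHX. The log2 fold change was -2.52 ± 0.22 (edgeR, adjusted p = 6.94e-06) and -1.63 after centring, again called. Its depth changed by -2.61 and its spliced reads by -0.08. In nucleus DMSO, where it was chosen, it had 0.0238, 0.0171 and 0.0208 in sgERH, against 0.181, 0.219 and 0.226 in sgAAVS1. The 3 member introns of BCLAF1 share their 5′ end and read largely the same RNA.

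Nonsense-mediated decay factors held 4 members (1.54% of the list), of which 3 were lower, with 57 of 259 introns of the list (22%, against 21.5% of all) lower and 4 (1.54%) higher. SMG9 intron 10 (chr19:43733734-43734388) had 0.0800, 0.0512 and 0.0903 in nucleus sgERH CHX, against 0.165, 0.190 and 0.218 in nucleus sgAAVS1 CHX, a change of -1.59 ± 0.25. UPF3B intron 9 changed by -1.66 and SMG8 intron 3 by -1.15. The splicing kinases held 3 members (2.1% of the list). A pair of overlapping DYRK1A introns was not called (-0.33 and -1.12), and DYRK1B intron 10 was higher (3.46 ± 1.18, edgeR, adjusted p = 0.0364), the only such call among members. The mean IR ratio of that DYRK1B intron was 0.280 in nucleus sgERH CHX and 0.0238 in nucleus sgAAVS1 CHX. Over that list 15 of 143 introns (10.5%) were lower and 5 (3.5%) higher. Genes known for detained introns held 0 members, with 13 of 130 introns (10%) lower and 5 (3.85%) higher.

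DNA replication and repair genes held 27 members in 18 genes (1.64% of the list), of which 12 were lower, where 51.9% of all members were. Over the list 262 of 1645 introns (15.9%, against 21.5% of all) were lower and 39 (2.37%) higher. ATR, the checkpoint kinase activated by stalled replication forks, had in its last intron 0.0369, 0.0227 and 0.0408 in nucleus sgERH CHX, against 0.154, 0.115 and 0.127 in nucleus sgAAVS1 CHX. This changed by -2.21 ± 0.27 (edgeR, adjusted p = 6.47e-05) and by -1.29 after centring, still called, with depth at -2.12 and spliced reads at 0.13. The replicative helicase subunits MCM2, MCM3 and MCM6 changed by -1.21, -2.01 and -1.17 in an intron each. The overlapping NBN introns at chr8:89937076-89943252 changed by -0.80 and missed the fold threshold.

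Mitosis and cell cycle genes held 11 members (1.03% of the list), of which 9 were lower, with 196 of 1073 introns of the list (18.3%, against 21.5% of all) lower and 41 (3.82%) higher. NCAPG, a condensin subunit, had in intron 18 0.136, 0.101 and 0.135 in nucleus sgERH CHX, against 0.270, 0.259 and 0.270 in nucleus sgAAVS1 CHX, a change of -1.38 ± 0.22. INCENP, of the chromosomal passenger complex, changed by -2.31 in intron 10, CCNB1, the mitotic cyclin, by -1.68 in its last intron, and the spindle checkpoint kinase TTK by -1.85 and -1.77. Of 8 members among p53 targets, 7 lay in FAS, a death receptor, and overlap in introns 5 to 7. FAS intron 6 had 0.432, 0.248 and 0.344 in nucleus sgERH CHX, against 0.684, 0.562 and 0.497 in nucleus sgAAVS1 CHX, and changed by -1.41 ± 0.37. After centring intron 6 changed by -0.51 and was not called. Its depth changed by -0.30 and its spliced reads by 1.08, and intron 5 was not called (-0.83). Over the p53 list, of which members were 3.51%, 52 of 228 introns (22.8%) were lower and 2 (0.877%) higher.

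**Figure D4:**
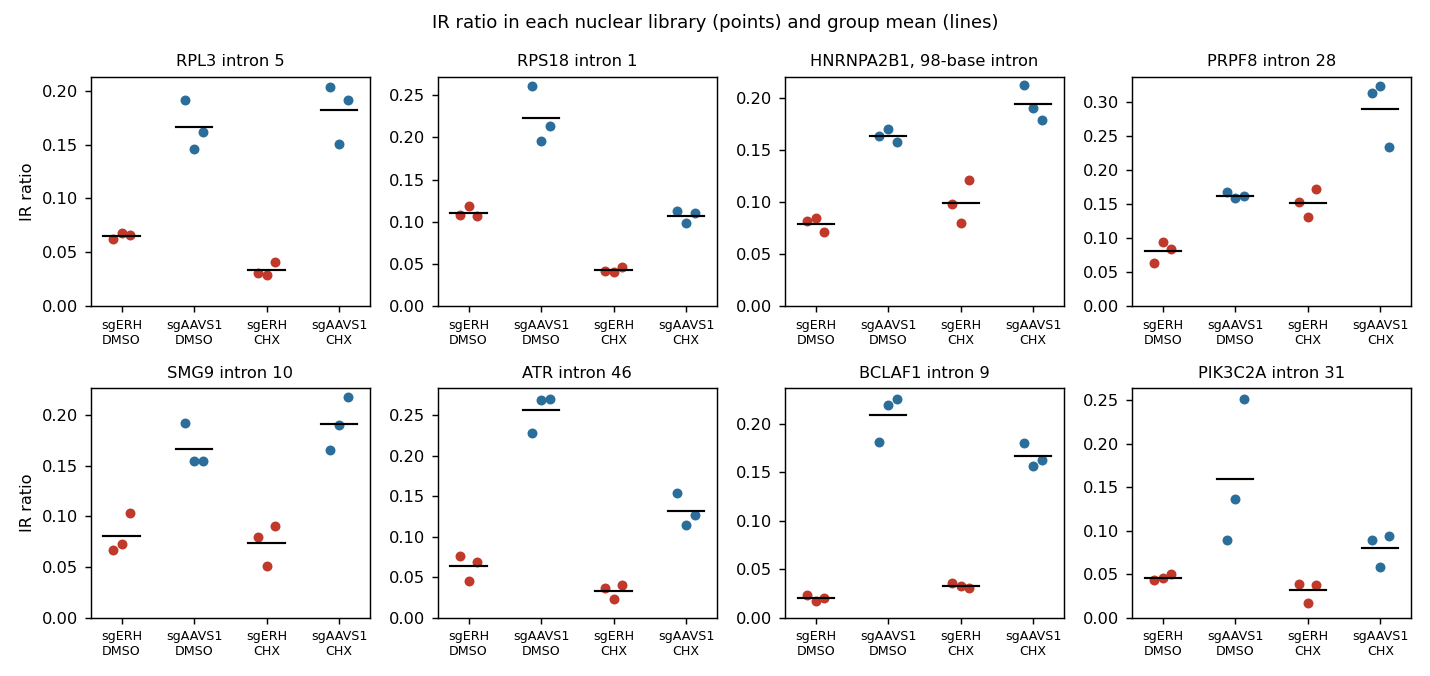
IR ratio in each of the 12 nuclear libraries (points) and group means (lines) for 8 members, each panel with its own axis that starts at 0. In all 8 the 3 sgERH CHX nuclei lie below the 3 sgAAVS1 CHX nuclei; the DMSO nuclei are those that chose the introns.

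PIK3C2A, a lipid kinase, held 2 members. Intron 31 had 0.0388, 0.0173 and 0.0381 in nucleus sgERH CHX, against 0.0889, 0.0582 and 0.0936 in nucleus sgAAVS1 CHX, and changed by -1.46 ± 0.38. Intron 9 (chr11:17135160-17136481) had 0.221, 0.231 and 0.388 in nucleus sgERH CHX, against 0.431, 0.581 and 0.490 in nucleus sgAAVS1 CHX, and changed by -1.34 ± 0.36. After centring the changes were -0.58 in intron 31 and -0.46 in intron 9, and neither was called. In nucleus DMSO intron 31 spread widely in the controls, at 0.0430, 0.0451 and 0.0503 in sgERH against 0.0897, 0.137 and 0.251 in sgAAVS1.

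The lowest fold changes among called members with a mean of at least 50 reads and depth were found in introns with few reads in the CHX nuclei. The 4 lowest, which follow, had 11 to 38 spliced reads in each sgAAVS1 CHX library. Introns of ST3GAL4 (a sialyltransferase) and TMEM150A were listed at 0 depth in all 3 sgERH CHX nuclei, so no fold is given. ST3GAL4 intron 7 (chr11:126408195-126408306) had 0.183, 0 and 0.0761 in nucleus sgAAVS1 CHX, and the TMEM150A intron (chr2:85601483-85601557) had 0.0305, 0.286 and 0.148. MAP3K6 intron 4 (chr1:27364086-27364203) had 0, 0.00358 and 0 in nucleus sgERH CHX, against 0.0914, 0.300 and 0.0788 in nucleus sgAAVS1 CHX. The RITA1 intron (chr12:113186022-113186192) had 0, 0 and 0.0329 in nucleus sgERH CHX, against 0.446, 0.0192 and 0.371 in nucleus sgAAVS1 CHX. Each of these 4 was called lower. After centring none was, with adjusted p (edgeR) of 0.0673 for RITA1, 0.0997 for ST3GAL4, 0.123 for TMEM150A and 0.180 for MAP3K6. The fitted change of RITA1, whose IR ratios overlapped between the guides, was -4.86 before centring and -4.12 after it. That of MAP3K6 was -5.52 before centring and -7.87 after it. With sgERH depth at or near 0, such folds are poorly fixed and do not show whether the decreases outlast centring.

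UBQLN4, a ubiquilin that binds the proteasome, had in intron 3 0.0447, 0 and 0.0189 in nucleus sgERH CHX, against 0.371, 0.205 and 0.334 in nucleus sgAAVS1 CHX. It changed by -4.15 ± 0.60 (edgeR, adjusted p = 0.000239), with 250, 228 and 192 spliced reads in sgERH against 47, 75 and 44 in sgAAVS1. RALGAPB, a subunit of the Ral GTPase-activating complex, had 0.0273, 0 and 0.0447 in nucleus sgERH CHX, against 0.358, 0.245 and 0.313 in nucleus sgAAVS1 CHX, a change of -4.02 ± 0.58. TNFAIP2 intron 2 changed by -3.88 ± 0.55 and the STK26 intron by -4.27 ± 0.74. All 4 were called lower after centring as well, and in all 4 the second sgERH library was at 0.

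Other members did not repeat. SORT1 intron 19 (chr1:109314058-109314260) had 0.191, 0.0317 and 0.0588 in nucleus sgERH CHX, against 0, 0 and 0.0150 in nucleus sgAAVS1 CHX, and was not called (2.66 ± 1.44). In nucleus DMSO its controls were 0.239, 0.0217 and 0.322, so its membership rested on 2 of 3 libraries. MMP10 intron 8 (chr11:102772116-102772846) was likewise raised by 1 control library, with 0.0805, 0.0959 and 0.488 in nucleus sgAAVS1 DMSO, and was not called in CHX nuclei. The AT members were not called either. VPS11 intron 1 had a mean IR ratio of 0.112 in nucleus sgERH CHX and 0.0482 in nucleus sgAAVS1 CHX, the 3 PIGB introns had 0.0973 and 0.0862, and the CRYZL1 intron had 0.222 and 0.198.

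In the cytoplasm, 1090 members passed the low-value filter and 1514 did not. With DMSO 2 were lower in sgERH (0.217% of the 33693 introns tested were lower) and 2 were higher (2.22% of all). With CHX 4 were lower (0.234% of all) and 0 higher (1.01% of all; edgeR, with 30 members higher at an unadjusted p under 0.05, and 0 by DESeq2). The median log2 fold change with DMSO was 0.20 in members and 0.54 over all introns tested, and with CHX -0.12 in members and 0.28 over all. After centring, 6 members were lower with DMSO (0.95% of all) and 0 higher (1.05% of all), and 4 were lower with CHX (0.457% of all) and 0 higher (0.611% of all). In these edgeR fits 14 members with DMSO and 13 with CHX were higher at an unadjusted p under 0.05.

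ZNF300, a zinc finger gene, held the member with the most cytoplasmic retention among those called. Its 146-base intron had 0.134, 0.136 and 0.151 in cytoplasm sgERH DMSO, against 0.393, 0.279 and 0.300 in cytoplasm sgAAVS1 DMSO, a change of -1.58 (edgeR, adjusted p = 0.00144). With CHX it had 0.116, 0.127 and 0.0666 in cytoplasm sgERH, against 0.192, 0.189 and 0.234 in cytoplasm sgAAVS1, a change of -1.16. In CHX nuclei it had 0.0729, 0.0661 and 0.124 in sgERH, against 0.299, 0.309 and 0.329 in sgAAVS1, so it was lower in sgERH in all 3 comparisons tested. The other cytoplasmic calls were lower retention of TMEM183A intron 1 with DMSO (-2.20), lower retention of ARFGEF2 intron 19 (-2.58) and of 2 overlapping NECTIN2 introns (-1.09 each) with CHX, and higher retention with DMSO of an ALG11 intron (2.42) and of MZT2A intron 1 (1.08). BCLAF1 intron 9 changed by -5.84 in the cytoplasm with DMSO, but its IR ratio there was at most 0.0037 and it was not called.

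CHX, which blocks translation-dependent decay, gave few calls among members in the cytoplasm, where few members could reach the IR ratio that a call needed. In sgERH cells 0 members were lower with CHX than with DMSO (1.5% of all introns were lower; edgeR, with 121 at an unadjusted p under 0.05, and 0 by DESeq2), and 4 were higher (0.418% of all), in ZNF702P, NCEH1, CAMK2D and PANK3. In sgAAVS1 cells 2 were lower (1.98% of all), in TMEM183A and INTS7, and 11 were higher (1.42% of all). The difference between the sgERH effects with CHX and with DMSO was called in 0 members in either direction (0.0772% of all introns lower and 0.0119% higher; edgeR, with 39 members lower and 16 higher at an unadjusted p under 0.05, and 0 by DESeq2).

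The genes that hold members changed little in their total counts. In CHX nuclei, of 1730 such genes tested, 37 (2.14%) were lower in sgERH (3.68% of all 17330 genes) and 71 (4.1%) were higher (5.29% of all). In the cytoplasm with DMSO, of 1728 tested, 39 (2.26%) were lower (2.16% of all 16130 genes) and 63 (3.65%) were higher (9.3% of all). With CHX 17 (0.984%) were lower (1.43% of all) and 50 (2.89%) higher (5.79% of all). The medians of the log2 fold change were 0.03, -0.01 and 0.00 in these 3 comparisons. In genes that held introns of the band but no member, 2.01%, 2.30% and 0.973% were lower and 2.51%, 2.49% and 1.88% higher in the same order of comparisons. Their lower shares were thus close to those of genes with members, and their higher shares were smaller in each comparison.

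Single genes went different ways. BCLAF1 total counts changed by 0.45 in the cytoplasm with DMSO, and ATR fell by 1.27 and NCAPG by 1.56 there. The member intron was lower in CHX nuclei in all 3. RPL3 changed by -0.03 and RPS18 by -0.18 in the cytoplasm with DMSO, and FAS by 0.92. In the same genes, introns that were not members moved with the transcriptome: 16955 of them were tested in CHX nuclei, with a median log2 fold change of -0.98 and 21.7% lower, against -0.92 and 21.4% for the 88009 introns of genes without a member.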

How the data were processed

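The authors deposited, for each of 24 libraries, expected counts per transcript and an intron table with coverage depth (signal), counts of spliced and boundary reads, and the IR ratio, a fraction. Per the study's methods, reads were trimmed with fastp, aligned with STAR to GRCh38 and quantified with salmon, and introns were measured with IRFinder-S. The strand-specific intron tables were used. The submitters' processing notes name fastp 0.23.4, SAMtools 1.16.1, bedtools 2.30.0 and DESeq2 1.28.0. Deposited TPM and length tables were not used here.

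Introns with a mean depth plus spliced reads of at least 10 and a mean depth of at least 1 over the 12 libraries of a fraction were tested with edgeR 4.0.16 (R 4.3.3): depth, rounded, and spliced reads as 2 columns per library, quasi-likelihood test of guide by read type, Benjamini-Hochberg over all introns tested. Fitted changes are log2 fold changes ± SE. Depth is a coverage, not a read count, so its sampling error is only approximated. The pair was also fitted apart, scaled by TMM of spliced reads. Gene counts were summed, rounded and kept by filterByExpr at a minimum count of 10. The fit was tested on simulated data. No 2 libraries were identical (0 pairs). Ends, GC content and intron numbers come from the GRCh38 reference.

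The members, gene lists and tests were chosen with earlier results of these data known. Named introns are the 8 members with the lowest called fold change at a mean of at least 50, the 4 deepest, up to 12 in the first 9 gene lists, 6 genes with most members, the 2 with the highest fold change, cytoplasmic calls, introns of 5 genes of the study, and those beside the threshold; others were chosen after their values were seen. Alternatives were DESeq2, limma 3.58.1, reads spliced exactly at both ends, centred libraries, other filters, a replicate block and leaving out each library. Some genes are not reported here by name.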

Additional observations from a re-analysis of the deposited data

How the results depend on the processing

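The number of members was 780 with introns free of a caution only, 1946 with a depth minimum of 40, 2721 with all introns and 2859 with group medians, and 2631 to 3164 when 1 nuclear DMSO library was left out. In CHX nuclei 1344 of 2588 members tested were called lower in the main fit. The count was 851 of 2259 tested with reads spliced exactly at both ends, and 250 of 2588 after centring. It was 1045 to 1321 when 1 library was left out. Other settings kept the main count within 1.5 times, DESeq2 giving 1099 and limma 1426. The share of all introns called lower was taken only in the main fit (21.5%) and after centring (1.57%), so the other counts describe members alone. In the cytoplasm the 4 members called with DMSO became 2 with DESeq2, 7 with limma and 2 with exact reads (3 to 4 without a library), and the 4 called with CHX became 0, 1 and 2 with the same settings. They became 0 to 3 without a library, 0 without sgERH CHX replicate 3, 1 without sgAAVS1 CHX replicate 3 and 2 without sgAAVS1 CHX replicate 1. The members called between CHX and DMSO were 6 by DESeq2 in sgAAVS1, against 13 (11 to 14 without a library), and 0 by DESeq2 in sgERH, against 4 (2 to 3 without a library, the lower value without sgERH DMSO replicate 1 or sgERH CHX replicate 2 or 3).

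With exact reads the fold change turned positive for 3 FAS introns (0.19, 3.33 and 0.15), an HNRNPC intron (0.23), an RPL3 intron (2.16) and a BCLAF1 intron (0.44), all with an end shared with other introns. Over 87 named results and 1118 values, 949 kept their call and direction, 153 lost the call (43 after centring and 72 without a library), 10 gained it and these 6 reversed. The numbers of the libraries did not pair them, since same-numbered deviations correlated at -0.011 to 0.020 over introns and -0.006 to 0.152 over genes; with the replicate number as a block 1282 members were called lower. Depth limits the shallow members, of which fewer were called.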
